A study of Sus scrofa with 2 samples.

Results

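Solute carriers are the membrane proteins that move sugars, lactate, amino acids, carnitine, ions, metals, vitamins and nucleotides across the plasma membrane and the membranes of organelles without splitting ATP themselves. They are numbered by family, and a family groups carriers of related sequence. In skeletal muscle they bring in fuel, export lactate, pass ATP and ADP through the inner mitochondrial membrane, carry acyl groups to the site of fatty acid oxidation and keep the ion gradients that excitation uses. The solute carrier genes described here are those of the deposited table of unigenes, the sequences assembled from the reads, whose protein match in the nr database was a RefSeq protein of a pig gene with a symbol of SLC and a family number. Members of the SLCO families were left out. This rule found 95 unigenes of 79 genes in 29 families, among 5698 unigenes of 4484 genes that received a pig symbol and 65535 unigenes in all. The pig RefSeq list holds 355 such symbols, so the 79 genes are the part of the group that could be matched. GLUT4 (SLC2A4), the glucose transporter that insulin moves to the surface of muscle fibres, was not found by this rule and was not analysed here. Where several unigenes shared a gene, the one with the highest mean RPKM over both libraries stood for it. SLC9A3R2 has a symbol of the group but is a scaffold protein that binds a sodium/proton exchanger, not a carrier.

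The tissue was the longissimus dorsi muscle (LM) of Shaziling and Yorkshire pigs. Shaziling is an indigenous Chinese breed of the fat type, whereas the lean Yorkshire grows fast. RNA came from 3 male full-sib pigs of each breed at 25 days of age, without any treatment that the labels mention. The deposited table gives 1 column of reads and 1 of RPKM (reads scaled by the length of the unigene and the size of the library) per breed, so each breed is 1 library, no spread between pigs could be computed, and breed cannot be told apart from litter. The breed was taken from the sample titles and the column names, and these go against another field of the labels, in which the descriptions of the indigenous and the lean type are exchanged.

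The table holds 29537057 reads of the Yorkshire library and 20575805 of the Shaziling library, which is 87.0% and 72.7% of the totals behind the RPKM values. The 2 most abundant mitochondrial unigenes took 46.4% of the total in Yorkshire but 11.8% in Shaziling. Since RPKM divides by the library total, the ratio of every other gene moves with this share. Of 15 markers of the muscle fibre, 4 were found by symbol (MYH4, MYH1, ATP2A1 and MYLPF), with a summed level of 5590 RPKM in Yorkshire and 13563 RPKM in Shaziling. Markers of other cells were present as well. The erythroid genes found (3 of 7, among them HBB of hemoglobin) summed to 18.9 RPKM in Yorkshire and 213 RPKM in Shaziling, and their member HBM had 0 reads in Yorkshire. The adipocyte genes found (3 of 6) summed to 27.8 and 54.5 RPKM and the endothelial genes found (3 of 5) to 35.2 and 58.5 RPKM. The fibroblast genes found (DCN and LUM, 2 of 4) were lower in Shaziling, at 253 and 178 RPKM, and 0 of 5 leukocyte genes were found by symbol. The part of these cells in the differences between carriers was not tested. In whole muscle, fewer cells of a type and less RNA per cell cannot be told apart.

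The carriers covered a wide range of levels, and 1 gene stood above the rest. SLC25A4, the ADP/ATP carrier of muscle and heart mitochondria, which exchanges mitochondrial ATP for cytosolic ADP, had 114 RPKM in Yorkshire and 267 RPKM in Shaziling. It ranked 42 of the 4484 genes by mean RPKM and held 36.1% of the summed RPKM of all 79 genes in Yorkshire and 42.2% in Shaziling. The next was SLC12A2, the sodium-potassium-chloride cotransporter NKCC1, at 17.5 RPKM in Yorkshire and 35.2 RPKM in Shaziling. SLC16A1, the lactate and pyruvate carrier MCT1, followed at 17.1 and 16.1 RPKM. SLC25A34, SLC44A2 and SLC25A20 had mean levels of 15.5 to 16 RPKM, so their order depends on which library is read. In Yorkshire, SLC12A2, SLC16A1 and SLC38A3 lay close together, at 17.5, 17.1 and 17.1 RPKM. In Shaziling, SLC25A34 (26.4 RPKM), SLC44A2 (25.2 RPKM) and SLC25A20 (21.8 RPKM) stood above SLC16A1 and SLC38A3. A mean of 10 RPKM or more was reached by 8 of the 79 genes. The median over the 79 genes was 1.67 RPKM, against 3.13 RPKM over all 4484 genes. Under a mean of 1 RPKM lay 23 genes, and the remaining 56 genes are the ones counted below.

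**Figure D1:**
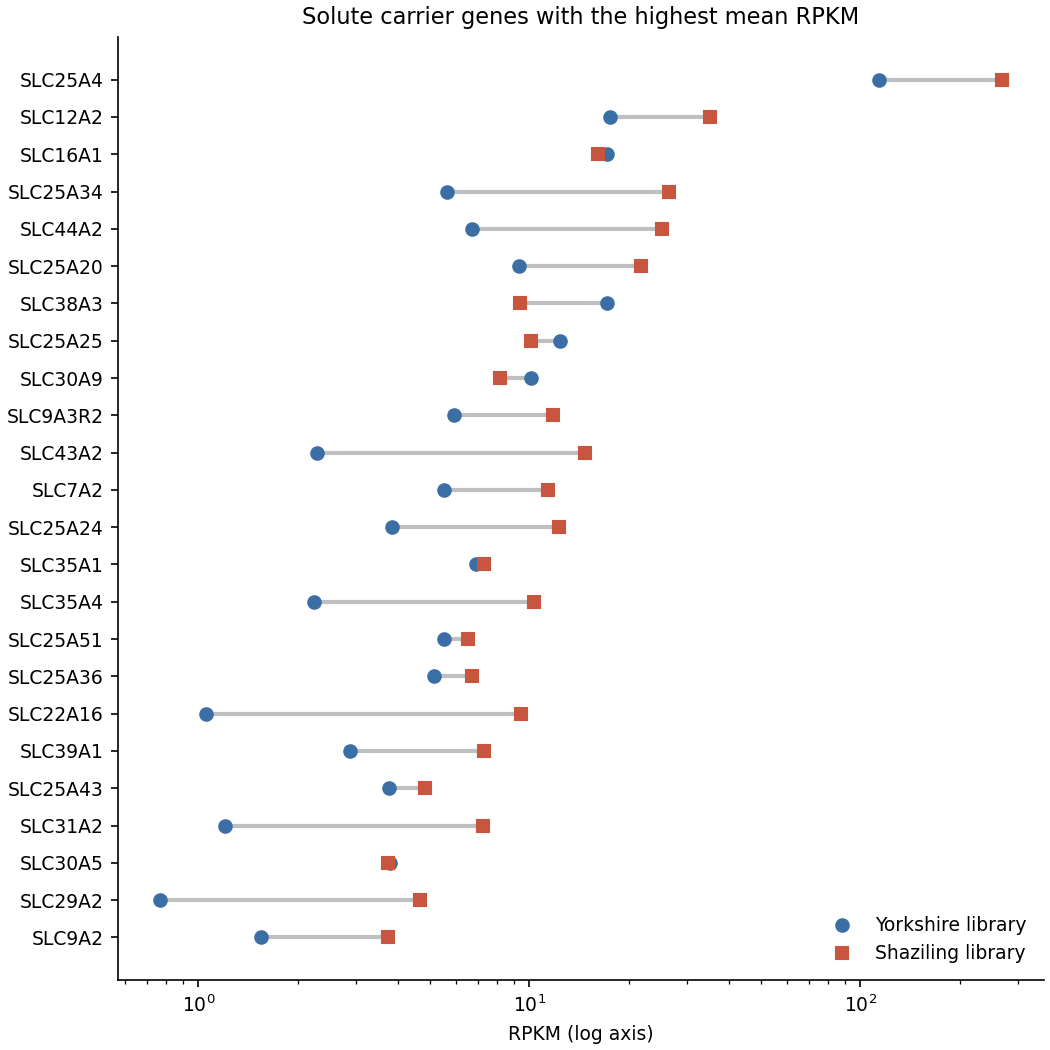
RPKM (log axis) of 24 of the 25 solute carrier genes with the highest mean, 1 row per gene, with a blue circle for the Yorkshire library and a red square for the Shaziling library. SLC25A4 stands alone at 114 and 267 RPKM, and the square lies to the right of the circle for most genes but to the left for SLC16A1, SLC38A3, SLC25A25, SLC30A9 and SLC30A5.

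Of the 56 genes with a mean of 1 RPKM or more, the level in Shaziling was at least 2 times that in Yorkshire for 28 (50%), and the reverse held for 4. Among all 3691 genes with a symbol and the same mean, these shares were 35.7% and 3.66%. A gene can reach this mean through 1 library alone. Several carriers counted as higher in Shaziling were under 1 RPKM in Yorkshire, among them SLC39A13, SLC3A2, SLC29A2, SLC25A26, SLC35B2, SLC5A4 and SLC5A6. SLC35B3 and SLC16A9, counted as higher in Yorkshire, were under 1 RPKM in Shaziling. Over all 79 carriers the counts were 43 and 4, beside 38.7% and 4.13% of all 4484 genes. On the log2 scale the Shaziling to Yorkshire ratio had a median of 1.0 among the 56 carriers and 0.60 among all genes of that level. With 1 library per breed no test of the breeds was possible. The reads set the counting error of each ratio, and the exact 95% interval lay wholly above a ratio of 2 for 21 of the 56 carriers, against 25.3% of all genes. The interval held a ratio of 1 for 12 of the 56 carriers, beside 793 of all 3691 genes. These intervals cover counting error only, and they are too narrow where both reads of a pair were counted: among unigenes with 1 to 10 reads, 74.5% of the Yorkshire counts and 58.0% of the Shaziling counts were even. With each 2 reads taken as 1 observation, the interval lay above a ratio of 2 for 18 carriers, beside 21.2% of all genes. The interval then held a ratio of 1 for more of the 56 carriers, among them SLC11A2, SLC50A1 and SLC30A1.

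The split between the breeds moved with the scaling of the libraries. After rescaling to the same RPKM sum, 20 carriers stood at least 2 times higher in Shaziling and 6 in Yorkshire, beside 23.6% and 9.08% of all genes. A median log2 ratio of 0 gave 20 and 6 as well (25.4% and 7.91% of all genes), and so did TMM (23.5% and 9.24%). When the 2 mitochondrial unigenes were taken out of the totals, so that every log2 ratio changed by -0.72, 14 carriers stood at least 2 times higher in Shaziling and 11 in Yorkshire, beside 17.7% and 16.7% of all genes. Each scaling moves all ratios by 1 common factor. Over the 56 genes, 33 stayed above 1 and 16 below 1 under every scaling, and 7 changed side (SLC25A36, SLC25A43, SLC25A51, SLC35A1, SLC35D2, SLC33A1 and SLC22A5).

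**Figure D2:**
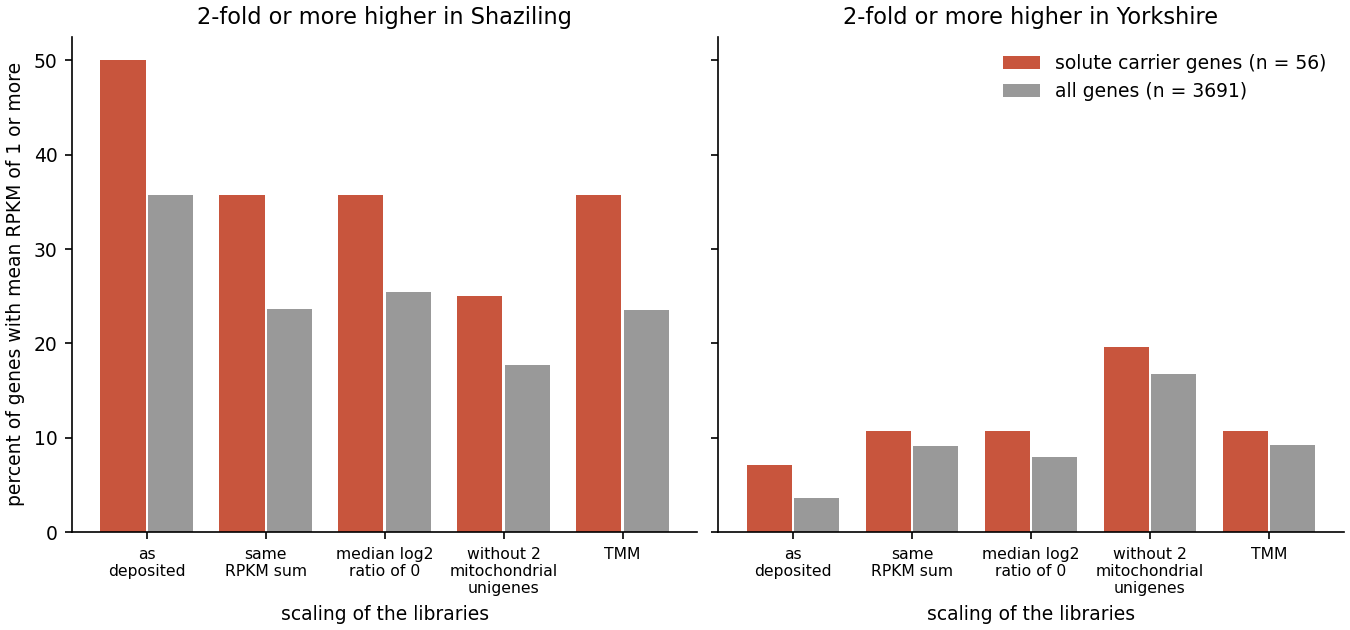
Percent of genes with a mean of 1 RPKM or more that were at least 2 times higher in Shaziling (left) or in Yorkshire (right) under 5 scalings of the libraries, with red bars for the 56 solute carrier genes and grey bars for all 3691 genes. The share higher in Shaziling goes from 50% of the carriers as deposited to 25% without the 2 mitochondrial unigenes, and the grey bars move the same way.

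**Figure D3:**
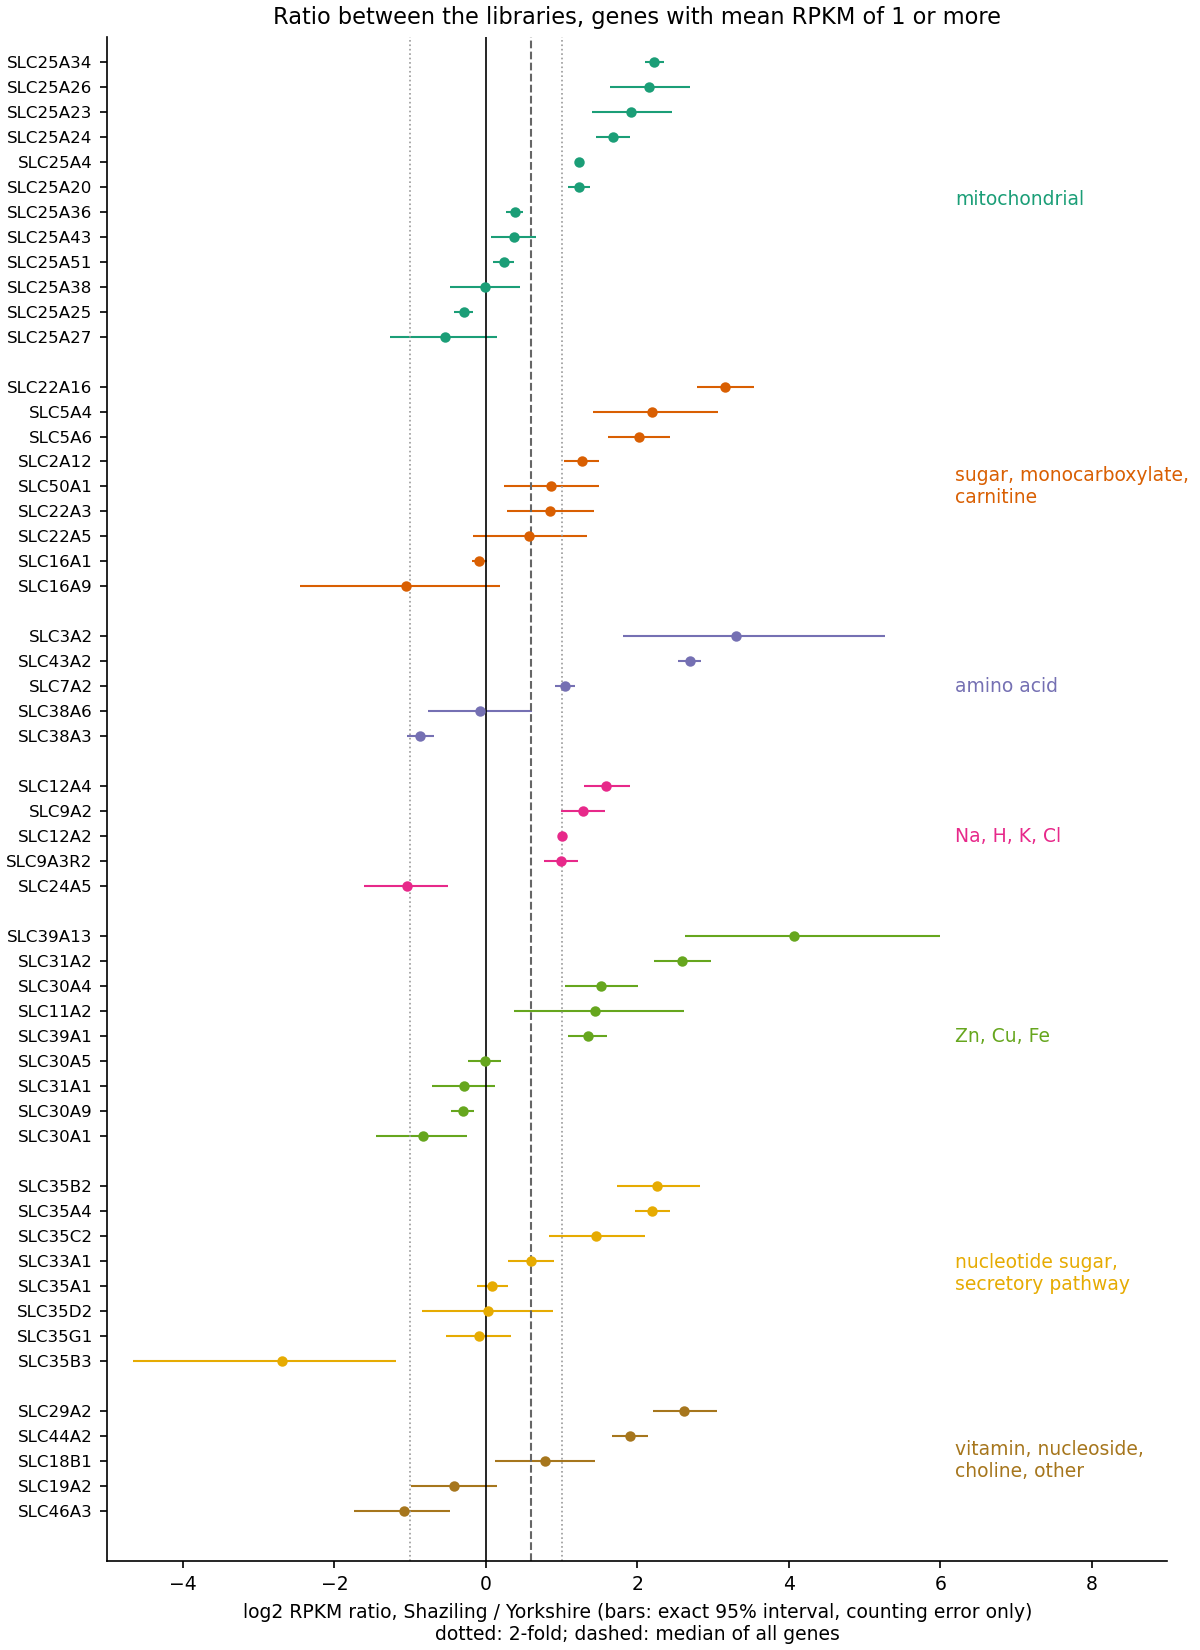
Log2 RPKM ratio of Shaziling to Yorkshire for 53 of the 56 solute carrier genes with a mean of 1 RPKM or more, grouped by what their family carries, with exact 95% intervals from the reads (counting error only). Dotted lines mark a ratio of 2 in either direction and the dashed line the median of all genes, 0.60, and the genes run from SLC35B3 at -2.69 to SLC39A13 at 4.07.

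The mitochondrial carriers of the SLC25 family, which link the matrix to the cytosol, were the largest family with 18 genes. Of the 13 with a mean of 1 RPKM or more, 7 stood at least 2 times higher in Shaziling and 0 in Yorkshire, with a median log2 ratio of 1.23, beside the shares of 35.7% and 3.66% of all genes. The counts were 5 and 0 with the same RPKM sum, a median of 0 or TMM, and 3 (SLC25A34, SLC25A23 and SLC25A26) and 2 (SLC25A25 and SLC25A27) without the mitochondrial unigenes. The shares of all genes were 23.5% to 25.4% and 7.91% to 9.24% in the former, and 17.7% and 16.7% in the latter. SLC25A4 was counted with 12963 reads in Yorkshire and 25390 in Shaziling and had a ratio of 2.35 (95% interval 2.30 to 2.40). The ADP/ATP carriers of vertebrates are close in sequence, so reads may be divided between this gene and its relatives, which were not found by the rule. Without SLC25A4 the RPKM of the family summed to 55.1 in Yorkshire and 107 in Shaziling. SLC25A20, the carnitine/acylcarnitine carrier that brings long-chain acyl groups into the matrix for oxidation, had 9.29 RPKM in Yorkshire and 21.8 RPKM in Shaziling. Its ratio was 2.34 (2.11 to 2.60), close to that of SLC25A4. Both genes were under 2 times higher with each other scaling, at log2 ratios of 0.51 to 0.88 for SLC25A4 and 0.51 to 0.87 for SLC25A20. CPT2, the enzyme that takes over the acylcarnitine on the matrix side, had 11.5 and 11 RPKM and a ratio of 0.961 (0.879 to 1.05).

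SLC25A34, a further member of the family, had the highest ratio among the 13, with 5.64 RPKM in Yorkshire and 26.4 RPKM in Shaziling and a ratio of 4.68 (4.30 to 5.10). It remained above 2 times higher in Shaziling without the mitochondrial unigenes, at a log2 ratio of 1.51. The 3 calcium-regulated ATP-Mg/phosphate carriers, which adjust the adenine nucleotide content of the matrix, did not share a direction. SLC25A24 had 3.83 RPKM in Yorkshire and 12.3 RPKM in Shaziling, a ratio of 3.20 (2.75 to 3.74), and SLC25A23 had 0.955 and 3.60 RPKM, a ratio of 3.77 (2.65 to 5.47). SLC25A25 was higher in Yorkshire, with 12.4 RPKM against 10.1 RPKM and a ratio of 0.819 (0.75 to 0.893). In Yorkshire SLC25A25 was the most abundant of these 3, and in Shaziling SLC25A24 was.

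Among the carriers of cofactors, SLC25A26, which imports S-adenosylmethionine, had 0.688 RPKM in Yorkshire and 3.05 RPKM in Shaziling and a ratio of 4.44 (3.11 to 6.46). SLC25A51, which imports NAD, was nearly level at 5.53 and 6.51 RPKM, and SLC25A36, a pyrimidine nucleotide carrier, at 5.17 and 6.73 RPKM. Both had log2 ratios below the median of all genes, at 0.23 and 0.38. SLC25A51 lay on the Yorkshire side with each other scaling, at -0.48 to -0.12. SLC25A36 lay there without the mitochondrial unigenes (-0.34), with the same RPKM sum (-0.05) and with TMM (-0.06). With a median of 0 it did not (0.03). SLC25A43 changed side under the same scalings as SLC25A36, with log2 ratios of 0.37 as deposited and -0.35 without the mitochondrial unigenes. SLC25A38, the glycine carrier needed for heme synthesis in red blood cell precursors, had 1.93 RPKM in Yorkshire and 1.92 RPKM in Shaziling and a ratio of 0.995 (0.719 to 1.37). A second unigene of this gene had 10 and 17 reads and a ratio of 2.04 (0.882 to 4.98). Beside SLC25A38, HBB had 18.5 RPKM in Yorkshire and 207 RPKM in Shaziling. SLC25A27, an uncoupling protein homolog known from brain, had 49 and 28 reads and a ratio of 0.685 (0.415 to 1.11).

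The families SLC2, SLC5, SLC16, SLC22 and SLC50, in which sugar, monocarboxylate and carnitine carriers were grouped, held 9 genes with a mean of 1 RPKM or more, of which 4 stood at least 2 times higher in Shaziling and 1 in Yorkshire. Of all genes of that level, 35.7% and 3.66% were counted. The members SLC5A6 and SLC22A3 carry other solutes, and without them the counts were 3 and 1 of 7. With each other scaling the counts over the 9 genes were 3 and 1. The shares of all genes were then 17.7% to 25.4% and 7.91% to 16.7%. SLC16A1 was counted with 1890 Yorkshire and 1484 Shaziling reads, and its ratio was 0.942 (0.879 to 1.01). Against the median of all genes its log2 ratio was -0.69. BSG (basigin), the partner that takes MCT1 to the plasma membrane, had 67.3 RPKM in Yorkshire and 55.0 RPKM in Shaziling and a ratio of 0.818 (0.772 to 0.866). Both genes of this pair thus had a ratio below the median of all genes. MPC1, a subunit of the mitochondrial pyruvate carrier, had 3.21 and 2.65 RPKM and a ratio of 0.824 (0.662 to 1.02). SLC16A9, a relative of MCT1, had only 20 and 8 reads, a ratio of 0.480 and an interval of 0.183 to 1.14 that held 1.

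SLC22A16, a carnitine transporter described first in testis, had the largest ratio among the 25 most abundant carriers. It was counted with 67 reads in Yorkshire and 497 in Shaziling, at 1.06 and 9.41 RPKM, and its ratio was 8.90 (6.88 to 11.7). SLC22A5 (OCTN2), the carnitine transporter through which muscle takes up carnitine from blood, had 1.15 and 1.72 RPKM and a ratio of 1.49 (0.888 to 2.52). SLC22A3, an organic cation transporter of the same family, had a ratio of 1.80 (1.21 to 2.70). The 3 members of this family therefore had ratios above 1, and the interval of SLC22A5 held 1.

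Of the facilitative glucose transporters, SLC2A12 (GLUT12) had 1.5 RPKM in Yorkshire and 3.61 RPKM in Shaziling, a ratio of 2.40 (2.05 to 2.82), and SLC2A10 had 4 and 6 reads. SLC50A1, a sugar transporter of the SWEET type, had 1.24 and 2.25 RPKM and a ratio of 1.82 (1.18 to 2.83). Among the sodium-coupled carriers, SLC5A6, which takes up biotin and pantothenate, had 66 and 223 reads and a ratio of 4.05 (3.07 to 5.42). SLC5A4, a member of the sodium-glucose cotransporter family, had 17 and 65 reads and a ratio of 4.59 (2.66 to 8.35). HK2, the hexokinase that traps the imported glucose in muscle, had 0.373 and 1.07 RPKM and a ratio of 2.88 (1.33 to 6.74).

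Among the 5 amino acid carriers with a mean of 1 RPKM or more, 3 stood at least 2 times higher in Shaziling, and the values of the glutamine carrier SLC38A3 went the other way. Of all genes of that level, 35.7% were at least 2 times higher in Shaziling. With each other scaling the counts were 2 in Shaziling (SLC43A2 and SLC3A2) and 1 in Yorkshire (SLC38A3). The shares of all genes were then 17.7% to 25.4% in Shaziling and 7.91% to 16.7% in Yorkshire. SLC43A2 (LAT4), which carries branched-chain amino acids and other neutral amino acids, had 414 reads and 2.27 RPKM in Yorkshire and 2230 reads and 14.7 RPKM in Shaziling. Its ratio was 6.46 (5.81 to 7.19). SLC7A2 (CAT2), a carrier of arginine and lysine, had 5.5 and 11.4 RPKM and a ratio of 2.07 (1.89 to 2.26), and this ratio was under 2 with each other scaling. SLC3A2 (4F2hc), the heavy chain that holds the light chains of several amino acid exchangers at the surface, was represented by a fragment of 284 bp with 4 and 33 reads. Its ratio of 9.89 had an interval of 3.52 to 38.4. SLC1A5 (ASCT2), a glutamine and neutral amino acid exchanger, had 4 and 23 reads and a ratio of 6.90 (2.36 to 27.4).

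SLC38A3 (SNAT3), a sodium-coupled glutamine carrier that also exchanges protons, had 836 reads and 17.1 RPKM in Yorkshire and 382 reads and 9.38 RPKM in Shaziling. The ratio was 0.548 (0.484 to 0.619), the lowest among the 25 most abundant carriers. A second unigene of the same gene, contig_5539, had 187 and 219 reads and a ratio of 1.40 (1.15 to 1.72), so the direction depended on the unigene. The related SLC38A6 had 1.71 and 1.62 RPKM and a ratio of 0.948 (0.587 to 1.52).

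In the families that move sodium, protons, potassium and chloride, 4 of 7 genes stood at least 2 times higher in Shaziling and 1 in Yorkshire. Of all genes of that level, 35.7% and 3.66% were counted. The count of 4 rested on the scaling, since 1 gene (SLC12A4) remained in Shaziling with the same RPKM sum, a median of 0 or TMM, and 0 without the mitochondrial unigenes. The shares of all genes higher in Shaziling were then 23.5% to 25.4%, and 17.7% without the mitochondrial unigenes. SLC12A2 (NKCC1), which loads cells with chloride, had 4087 reads in Yorkshire and 6852 in Shaziling and a ratio of 2.01 (1.93 to 2.09), just at the fold that was counted. SLC12A4 (KCC1), which carries potassium and chloride out of the cell, had 1.07 and 3.22 RPKM and a ratio of 3.01 (2.45 to 3.73). Both cotransporters thus had higher values in Shaziling, and NKCC1 was the more abundant in each library. SLC9A2, a sodium/proton exchanger, had 148 and 299 reads, 1.55 and 3.75 RPKM, and a ratio of 2.42 (1.98 to 2.97). The scaffold SLC9A3R2 had 5.92 and 11.8 RPKM and a ratio of 1.99 (1.71 to 2.32). SLC24A5, a potassium-dependent sodium/calcium exchanger of pigment cells, was higher in Yorkshire, with 99 reads against 40 and a ratio of 0.485 (0.327 to 0.706).

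The metal carriers showed both directions. Of 9 genes with a mean of 1 RPKM or more, 5 stood at least 2 times higher in Shaziling and 0 in Yorkshire, and 4 had ratios below 1. Of all genes of that level, 35.7% and 3.66% were counted. Without the mitochondrial unigenes the counts were 2 and 3, beside 17.7% and 16.7% of all genes. With the other scalings they were 4 and 1, beside 23.5% to 25.4% and 7.91% to 9.24% of all genes. The families differed in their values. The ZIP zinc carriers of the SLC39 family, which bring zinc into the cytosol, had ratios above 2 for 4 of 4 genes as deposited, of which 2 lay under 1 RPKM, where 52.5% of all genes were counted. With the same RPKM sum, a median of 0 or TMM 3 of the 4 were above 2 (not SLC39A1), and without the mitochondrial unigenes 2 (SLC39A13 and SLC39A3). SLC39A1 had 182 and 385 reads, 2.87 and 7.27 RPKM, and a ratio of 2.54 (2.12 to 3.04). SLC39A13, whose loss affects connective tissue, had 4 reads in Yorkshire and 56 in Shaziling, the largest ratio of the 56 genes at 16.8 (6.2 to 63.8). It reached a mean of 1 RPKM only through the Shaziling library, with 0.117 RPKM in Yorkshire and 1.96 RPKM in Shaziling. Its log2 ratio of 4.07 was 1.41 with 1 RPKM added to each value. SLC39A14, which also takes up iron, and SLC39A3 were under the level of 1 RPKM, with ratios of 2.87 (1.82 to 4.63) and 5.70 (3.02 to 11.7).

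The ZnT zinc carriers of the SLC30 family had a median log2 ratio of -0.16. Most of them, though not SLC30A9, move zinc out of the cytosol. SLC30A9 was the most abundant of them, with 10.1 RPKM in Yorkshire and 8.16 RPKM in Shaziling and a ratio of 0.808 (0.727 to 0.898). SLC30A5 of the secretory pathway was level at 3.78 and 3.73 RPKM, with a ratio of 0.988 (0.853 to 1.14). SLC30A1, the zinc exporter of the plasma membrane, had 77 and 36 reads and a ratio of 0.561 (0.367 to 0.843). Only SLC30A4 of the 4 had a ratio above 1, at 2.87 (2.07 to 4.04). Whether the SLC30 and SLC39 families differ could not be tested with single libraries.

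The 2 copper carriers of the SLC31 family had ratios on opposite sides of 1. SLC31A1 (CTR1), the importer of copper at the cell surface, had 2.68 RPKM in Yorkshire and 2.19 RPKM in Shaziling and a ratio of 0.819 (0.613 to 1.09). SLC31A2 (CTR2), its relative of endosomes and lysosomes, had 73 and 367 reads, 1.20 and 7.26 RPKM, and a ratio of 6.03 (4.68 to 7.86). In Yorkshire SLC31A1 was thus the more abundant of the pair, and in Shaziling SLC31A2. The iron carrier SLC11A2 (DMT1) was represented by a fragment of 262 bp, with 11 and 25 reads and a ratio of 2.73 (1.29 to 6.14).

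The carriers of the secretory pathway supply the endoplasmic reticulum and the Golgi with nucleotide sugars, sulfate donors and acetyl-CoA. Of 8 genes with a mean of 1 RPKM or more, 3 (37.5%) stood at least 2 times higher in Shaziling and 1 in Yorkshire. The shares of all genes were 35.7% and 3.66%, so as deposited the share in Shaziling was near that of all genes. Without the mitochondrial unigenes the counts were 2 and 1, beside 17.7% and 16.7% of all genes. With the other scalings they were 3 and 1, beside 23.5% to 25.4% and 7.91% to 9.24% of all genes. The median log2 ratio was 0.34, below that of all genes. SLC35A1, which brings CMP-sialic acid into the Golgi, was the most abundant, with 6.88 RPKM in Yorkshire and 7.30 RPKM in Shaziling and a ratio of 1.06 (0.923 to 1.22). SLC35A4, of the same subfamily, had 2.24 and 10.3 RPKM and a ratio of 4.59 (3.91 to 5.41). In Yorkshire SLC35A1 was the higher of the pair, and in Shaziling SLC35A4. The 2 carriers of the sulfate donor PAPS had values in opposite directions, with 36 and 144 reads for SLC35B2, a ratio of 4.80 (3.31 to 7.12), and with 31 and 4 reads for SLC35B3, a ratio of 0.155 (0.0397 to 0.438). The latter was the lowest ratio of the 56 genes and came from a fragment of 362 bp. SLC33A1, the acetyl-CoA carrier of the endoplasmic reticulum, had a ratio of 1.51 (1.23 to 1.86), at the median of all genes.

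Of the 5 genes for vitamins, nucleosides, choline and other solutes, 2 stood at least 2 times higher in Shaziling and 1 in Yorkshire. Of all genes with a mean of 1 RPKM or more, 35.7% and 3.66% were counted. Without the mitochondrial unigenes the counts were 2 and 2 (SLC46A3 and SLC19A2 in Yorkshire), beside 17.7% and 16.7% of all genes. With the other scalings they were 2 and 1, beside 23.5% to 25.4% and 7.91% to 9.24% of all genes. SLC44A2, a choline transporter-like protein, had 193 reads and 6.73 RPKM in Yorkshire and 602 reads and 25.2 RPKM in Shaziling, a ratio of 3.74 (3.18 to 4.42). A second unigene of this gene had a ratio of 3.65. SLC29A2 (ENT2), an equilibrative nucleoside transporter that is abundant in skeletal muscle, had 58 and 296 reads, 0.765 and 4.69 RPKM, and a ratio of 6.12 (4.61 to 8.26). Its second unigene had a ratio of 4.09. SLC19A2, a thiamine transporter, had 72 and 45 reads and a ratio of 0.75 (0.505 to 1.10). SLC46A3 of the lysosome was higher in Yorkshire, with 79 reads against 31 and a ratio of 0.471 (0.300 to 0.721).

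Low abundance limited what could be said of the other 23 genes, which had means from 0.288 to 0.931 RPKM. Of these, 15 stood at least 2 times higher in Shaziling and 0 in Yorkshire, where the shares of all genes at the same level were 52.5% and 6.31%. In Yorkshire 9 of the 79 genes had 3 reads or fewer, and in Shaziling 0 had. SLC25A45 had 0 reads in Yorkshire and 8 in Shaziling, and its interval started at a ratio of 2.05. With each 2 reads taken as 1 observation, the interval of SLC25A45 started at 0.792 and held 1. SLC25A29, a mitochondrial carrier of basic amino acids, had 3 and 30 reads and a ratio of 12 (3.73 to 61.4). SLC25A22, a mitochondrial glutamate carrier, had 20 and 75 reads and a ratio of 4.50 (2.72 to 7.78). For 10 of the 23 genes the interval held a ratio of 1, among them SLC16A7 (MCT2), with 4 and 5 reads. Without a filter on the level it held 1 for 22 of the 79 carriers, beside 1218 of all 4484 genes.

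More than 1 unigene was found for 15 of the 79 genes. The spread between the unigenes of a gene holds counting error together with any other error. In 12 genes the unigenes lay on the same side of a ratio of 1, and in 3 genes on opposite sides (SLC38A3, SLC35F6 and SLC25A38). The ratios of the unigenes of a gene differed by a median of 1.83 times, with 3 reads set for the unigene of SLC12A9 that had 0 reads in Yorkshire. This median was the value of SLC12A9 itself, and it does not separate counting error from other error. The intervals overlapped in 12 of the 15 genes. The intervals did not overlap in 3 genes, namely SLC38A3, SLC9A3R2 and SLC35F6. In SLC35F6 the unigenes had 2 and 28 reads against 22 and 12 reads, with ratios of 16.8 and 0.654, so its direction depended on the unigene. It was counted by the first, and without it the counts in Shaziling were 14 of 22 genes under 1 RPKM and 42 of all 78. SLC22A5 had ratios of 1.49 and 10.2, and its intervals overlapped. For SLC44A2, SLC15A3, SLC39A14, SLC29A2 and SLC35E3 the unigenes differed by less than 1.5 times.

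**Figure D4:**
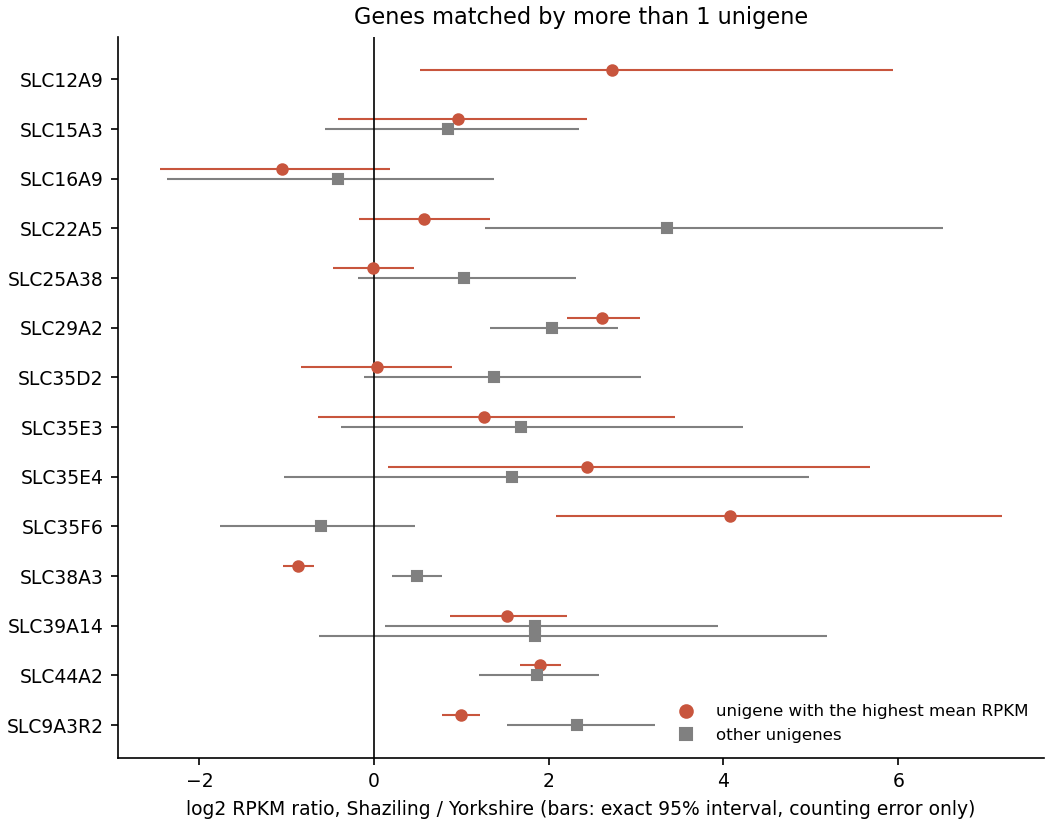
Log2 RPKM ratio of Shaziling to Yorkshire for each unigene of 14 of the 15 solute carrier genes with more than 1 unigene, with exact 95% intervals from the reads (counting error only). Red circles are the unigenes that stand for the gene and grey squares the others, and in SLC38A3, SLC9A3R2 and SLC35F6 the intervals do not overlap (a unigene of SLC12A9 with 0 reads in Yorkshire is not drawn).

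The ratio of the carriers was also read beside their abundance and the length of the unigene. Under a mean of 1 RPKM the median log2 ratio was 1.48 for the carriers and 1.20 for all genes. From 1 to 2 RPKM, which held 21 carriers, it was 0.85 for the carriers and 0.86 for all genes, and 42.9% of the carriers against 47.1% of all genes stood at least 2 times higher in Shaziling, so at this level the carriers were not above the other genes. From 2 to 5 RPKM the medians were 1.02 and 0.61, and from 5 to 10 RPKM they were 1.05 and 0.44. From 10 RPKM upwards they were 1.12 and 0.53, and 5 of the 8 carriers stood at least 2 times higher in Shaziling, beside 30.6% of all genes. The 22 carriers with a unigene of 2000 bp or longer had a median of 1.05, against 0.50 for all genes of that length, and 13 of them stood at least 2 times higher in Shaziling, beside 28.4% of all genes. For unigenes of 500 to 2000 bp the medians were 0.86 for the 29 carriers and 0.70 for all genes, with 44.8% and 40.2% at least 2 times higher in Shaziling. The 5 carriers with unigenes under 500 bp had a lower median than all genes of that length, 0.03 against 0.51, ran from -2.69 to 3.31, and had 40% at least 2 times higher in Shaziling against 40.9%. As a description of 2 libraries, these differences were not tested.

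**Figure D5:**
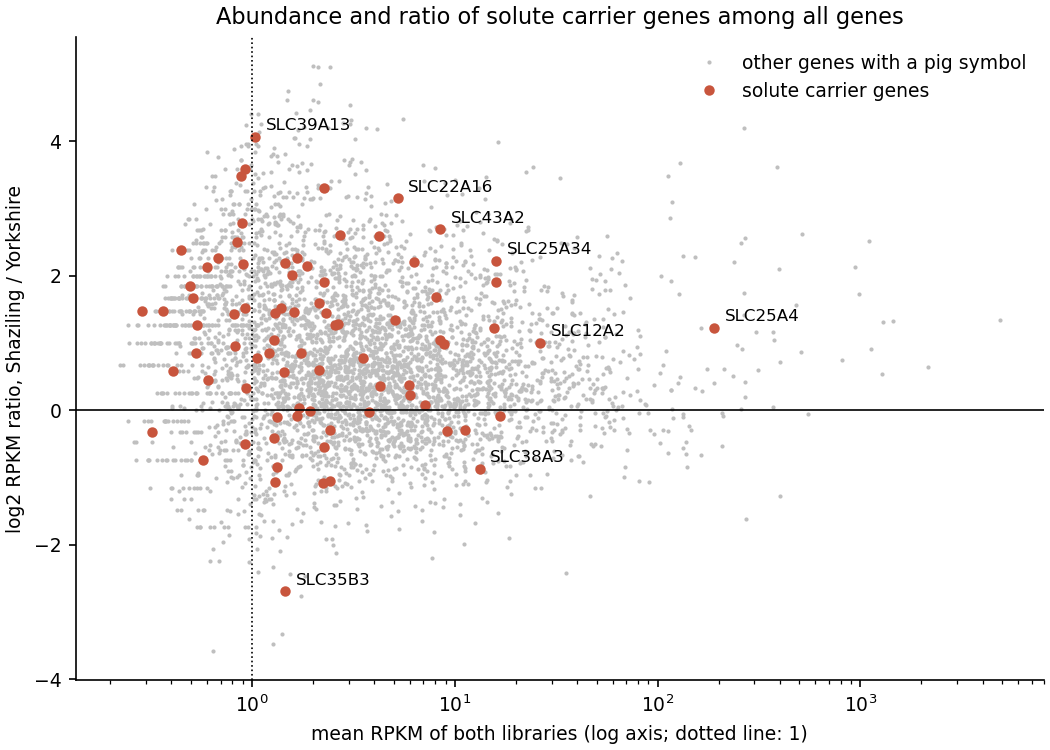
Log2 RPKM ratio of Shaziling to Yorkshire against the mean RPKM of both libraries (log axis), with red points for the solute carrier genes and grey points for the other genes with a pig symbol, and 3 reads as the lowest level in a library. Most red points lie above 0 at every level of abundance, and the scatter of grey points is widest near 1 RPKM.

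Genes that work beside the carriers had lower ratios at the median. Of 26 such genes on a list, 11 were found, and 10 had a mean of 1 RPKM or more. Only UCP2, an uncoupling protein of the mitochondrial carrier type with another kind of symbol, was at least 2 times higher in Shaziling among these 10, with 10 and 38 reads and a ratio of 4.56 (2.23 to 10.3). Of all genes, 35.7% with a mean of 1 RPKM or more and 30.6% from 10 RPKM upwards were counted. The median log2 ratio of the 10 genes was -0.05, beside 1.0 for the carriers and 0.60 for all genes. Without the mitochondrial unigenes it was -0.77, beside 0.28 for the carriers, and with TMM -0.49 beside 0.56. VDAC2, the channel of the outer mitochondrial membrane, had 54.6 and 104 RPKM and a ratio of 1.91 (1.85 to 1.98). CKMT2, the creatine kinase that uses the ATP exported by SLC25A4, had 41.3 and 54.3 RPKM and a ratio of 1.32 (1.27 to 1.36), below that of SLC25A4. CD36, which takes up fatty acids, had 135 and 171 RPKM and a ratio of 1.26 (1.18 to 1.35). The enzymes of the malate-aspartate shuttle were near 1, with ratios of 0.965 (0.929 to 1.0) for MDH1, 0.852 (0.809 to 0.896) for GOT1 and 0.930 (0.906 to 0.956) for GOT2.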

How the data were processed

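RNA of the LM of 3 pigs per breed was sequenced, and the authors trimmed the reads of both breeds, assembled them into unigenes with CLC Genomics Workbench and matched these to the nr database. Whether RNA was pooled or reads merged is not given in the sources used here. The submitters' processing notes also name CASAVA 1.8, TopHat2 2.0.6 and the mouse build mm10, without a role, so no coordinates were used. The deposited read counts per unigene are not normalized. The authors took RPKM from Qualimap, and the deposited values are per unigene length and per library totals of 33949238 (Yorkshire) and 28305925 (Shaziling) reads. The deposited unigene lengths are in bp.

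Columns were mapped by the breed in their names. The number of per-sample columns not used was 0. Symbols came from RefSeq protein accessions of the assembly Sscrofa11.1. Ratios compare RPKM without a pseudocount, with exact (Clopper-Pearson) 95% intervals on the reads. A fold of 2 was counted over genes with a mean RPKM of 1 or more, with 3 reads as the lowest level. For 1 kb of sequence these reads are worth 0.0884 RPKM (Yorkshire) or 0.106 RPKM (Shaziling). With 1 library per breed no breed test was made. The interval was tested on simulated data with independent reads. That simulation left out the counting of both reads of a pair, so it does not cover that case. Named were the 25 most abundant carriers, the 5 highest and 5 lowest ratios, a list of 35 muscle transporters (11 found) and the leading gene of families with 3 or more members, 37 genes in all. Other genes were named after their values were seen, to complete a family, and some genes are counted in the totals but not reported here by name or drawn. The members, the lists and the grouping of families by what they carry were chosen with earlier results of these data known. Alternatives were 4 scalings (TMM with edgeR 4.0.16), other unigenes per gene, a minimum length of 300 bp, folds of 1.5 and 3, other RPKM minimums and pseudocounts of 1 and 0.1. Intervals with 2 reads as 1 observation, a count of intervals above 2, counts per class and partner medians under each scaling, and counts without single genes were added after seeing the data. The software was R 4.3.3 and Python 3.11.15 with pandas 2.3.3, scipy 1.17.1 and numpy 2.4.6.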

Additional observations from a re-analysis of the deposited data

How the results depend on the processing

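The count of 28 carriers at least 2 times higher in Shaziling was 14 when the 2 mitochondrial unigenes were taken out of the totals, 16 with a fold of 3, 43 of 79 without a filter on low values, 11 of 19 with a mean of 5 RPKM or more, and 18 with the interval of read pairs above 2. The count of 4 higher in Yorkshire was 11, 1, 4 and 0 under the first 4 of these. The median log2 ratio of 1.0 was 0.57 with the same RPKM sum, 0.65 with a median log2 ratio of 0, 0.28 without the mitochondrial unigenes, 0.56 with TMM, 1.23 without a filter and 0.69 with a pseudocount of 1 RPKM. Its distance of 0.40 to the median of all genes was 0.55 without a filter, 0.56 with a mean of 5 RPKM or more and 0.22 with that pseudocount. The shifts under a scaling follow from its construction, and the other causes were not tested. The other alternatives left these counts within 1.5 times and these medians within 0.1. Of the 37 named genes, 5 changed direction without the mitochondrial unigenes, 4 with the same RPKM sum or TMM and 2 with a median log2 ratio of 0. SLC3A2 and SLC11A2 gave no value with unigenes under 300 bp left out. No paired analysis was possible because each breed has 1 library. Differences between pigs, breed against litter, and folds of genes with a few reads could not be resolved.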
